A study of Macaca fascicularis with 23 samples.

Results

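Cells taken out of naïve-like culture were compared with primed cells, the state from which they had first been derived. Both were sequenced in 7 pluripotent stem cell (PSC) lines of the cynomolgus monkey (Cm). The comparison took every library labelled differentiated and every library labelled primed, 14 of the 23 in the series, and paired them by cell line. Of 8415 genes analysed here, 2677 reached more than 4 on the log2(RPM + 1) scale in at least 1 of the 14 libraries and were tested. RPM is the number of reads of a gene per 1000000 reads of its library, and every change given here as a log2 value is a difference on the log2(RPM + 1) scale, which understates the change of genes with few reads.

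Embryonic stem cell (ESC) lines numbered 3, namely CMK6, CMK9 and TRSK. The 4 induced PSC (iPSC) lines came from cultured somatic cells of 1 female foetus, iPS-L3 and iPS-L6 from its liver and iPS-S6 and iPS-S12 from its stomach. Primed cells grew in bFGF/KSR, a medium based on basic fibroblast growth factor (bFGF) and serum replacement. Differentiated cells grew in K5c, which holds 5 compounds, namely Gö6983 (an inhibitor of PKC), forskolin (an activator of adenylyl cyclase), kenpaullone and CHIR99021 (inhibitors of GSK3) and SB590885 (an inhibitor of BRAF). They had first been converted in K5cLD, the same medium with leukaemia inhibitory factor (LIF) and doxycycline (Dox), which induces PiggyBac transgenes of human KLF2 and human NANOG, and LIF and Dox were then withdrawn. After this withdrawal, the paper reports, nearly all ESC colonies turned cobble-stone-like. The iPSC lines kept some dome-shaped colonies, the shape of naïve-like ones, so their differentiated cultures may have been mixed. Converted cells also carried an EOS reporter of GFP and puromycin resistance with the transactivator that Dox needs, and both media were used without feeder cells on laminin-511. The differentiated cells thus differed from the primed ones in base medium, in the compounds, in the absence of bFGF and in passage history. They also differed in the earlier culture with LIF and Dox, which induced the transgenes, and the effects of all these cannot be told apart. The paper reports some remaining expression of the NANOG transgene without Dox in converted TRSK and iPS-S6. Whether the cells of the primed libraries carried the vectors is not stated in the sources used here. An episomal reprogramming vector with human OCT3/4 (POU5F1) and a small hairpin RNA against p53 was still detected in iPS-L3, iPS-L6 and a stomach line that the sources name differently. Each line gave 1 library per condition, so the spread between lines is the only replicate error.

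Primed PSCs of primates resemble the epiblast after implantation, and FGF signalling through ERK together with Nodal/Activin signalling through SMAD2 and SMAD3 keeps them there. The transcription factors POU5F1 (OCT3/4), SOX2 and NANOG form the core of the pluripotency network, and POU5F1 is lost in most cells that leave it, whereas SOX2 remains in cells that take a neural path. Cells that exit pluripotency can go towards neural or other ectoderm, mesoderm, endoderm or extraembryonic lineages, each with markers of its own.

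Depth was 861000 to 7986000 reads in primed libraries (median 3250000) and 941000 to 5491000 in differentiated ones (median 3063000), as read from the step between low RPM values. A level of 3 reads, below which a gene was read as not detectable, corresponded to 0.376 to 3.49 RPM. The library numbers run by condition, so that a batch of preparation, if there was one, cannot be told apart from it. The primed iPS-S12 library stood somewhat apart, with a median correlation across genes of 0.868 to the other primed libraries, against 0.888 to 0.918 for the rest. Its POU5F1 level was 32.8 RPM, the lowest of the primed libraries, while the median of the 7 was 238 RPM.

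Of the 2677 genes, 415 differed between differentiated and primed cells (15.5% called), 201 higher (7.51%) and 214 lower (7.99%) in differentiated cells, by limma with the line as a block and an adjusted p under 0.05. Counts given below for gene lists are to be read beside these shares, and a count near them says nothing particular about a list. Without iPS-S12 the count was 365, and it moved most when CMK6 (274 genes) or iPS-L3 (273 genes) was left out. Large changes were more often falls. Of 50 called genes that changed by more than 2 on the log2 scale, 39 fell and 11 rose. The change had the same sign in all 7 lines for 288 called genes. In 89 genes (3.32% of those tested) every differentiated library lay above or below every primed one, and 87 of these were called. In the 4 lines with at least 2000000 reads in both libraries, a choice made after the data were seen, 62 genes were called, and 407 of the 407 genes called in 7 lines and tested there had the same direction. These 4 lines are among the 7 that gave the calls, so the shared direction is no independent check.

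**Figure D1:**
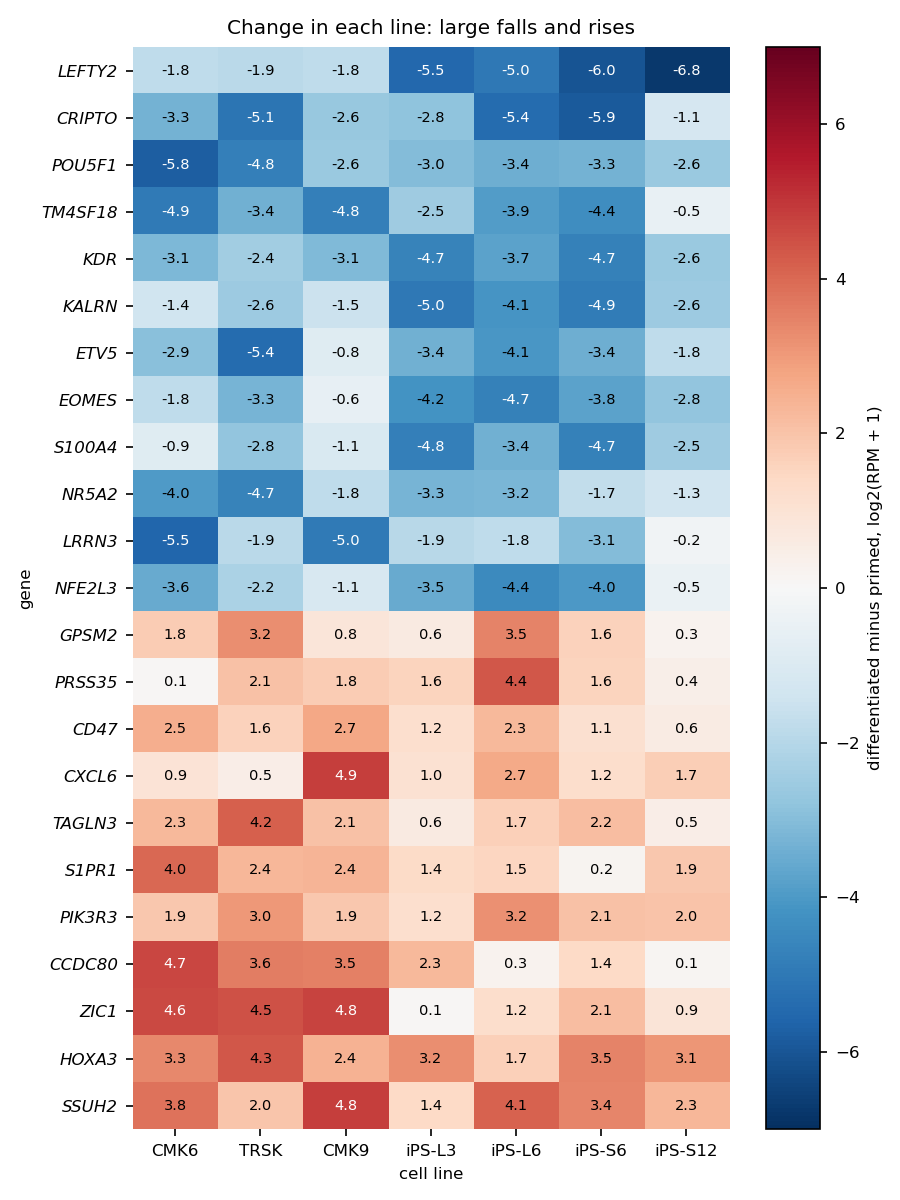
Difference between the differentiated and the primed library of each line (columns), in log2(RPM + 1), for the 12 genes with the largest falls and 11 of the 12 with the largest rises among called genes that moved the same way in all 7 lines (rows). Blue cells are lower and red cells higher in differentiated cells. LEFTY2 fell by 5.02 to 6.78 in the iPSC lines and fell by 1.79 to 1.87 in the ESC lines.

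POU5F1, CRIPTO, HESX1, DPPA4 and L1TD1, all genes of the undifferentiated state, fell in every line. The POU5F1 level was 32.8–427 RPM (median 238) in primed libraries and 3.59–69.2 RPM (median 20.2) in differentiated ones. The ranges overlapped in that primed iPS-S12 (32.8 RPM) lay below differentiated CMK9 (69.2 RPM), and within every line the differentiated library was the lower one. The difference was -3.64 ± 0.33 (SE) on the log2 scale, 12.5-fold, over 7 lines (limma, adjusted p = 0.000152). In bulk RNA a smaller share of cells that express a gene and less of its RNA per cell cannot be told apart, here and in the results that follow. CRIPTO, also known as TDGF1, encodes the co-receptor of Nodal and marks undifferentiated cells. It was at 5.76–83.7 RPM (median 33.2) in primed cells against 0–9.07 RPM (median 0.999) after withdrawal, where 3 libraries were at 0, a difference of -3.76 ± 0.52 (adjusted p = 0.000777).

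HESX1, a homeobox gene of epiblast and anterior neural plate, went from 3.99–16.5 RPM (median 13.2) to 0–7.38 RPM (median 0), with 4 differentiated libraries at 0 (difference of -2.66 ± 0.42, adjusted p = 0.0015). DPPA4, a chromatin-associated protein of pluripotent cells, had 36.3–169.8 RPM (median 119.7) before and 9.35–47.5 RPM (median 29.3) after, and the ranges overlapped. Its difference of -2.0 ± 0.20 passed the test (adjusted p = 0.000152). L1TD1, an RNA-binding protein of the undifferentiated state, fell by 1.81 ± 0.32 (adjusted p = 0.0028). The annotation gives its symbol to a second gene as well, so that its reads may be shared with that copy.

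SOX2, which also serves neural progenitors, did not follow. It was at 277–528 RPM (median 449) in primed and 220.0–653 RPM (median 471) in differentiated libraries, higher in 4 lines and lower in 3, and the difference of 0.0295 ± 0.20 did not pass the test (adjusted p = 0.944). LIN28A, an RNA-binding protein that blocks let-7 maturation, was at 349–1132 RPM (median 773) and 634–1417 RPM (median 1086) and did not pass either (difference 0.44 ± 0.16, adjusted p = 0.0803). Its paralogue LIN28B differed by 0.10 ± 0.10 (adjusted p = 0.516), and DPPA2, the partner of DPPA4, by 1.16 ± 0.46 (adjusted p = 0.101). Of the pluripotency list, which did not hold SOX2, 5 of the 8 tested members fell, 0 rose and 3 did not pass. The median difference of the list was -1.91, beside 0.0487 for all genes tested. 

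**Figure D2:**
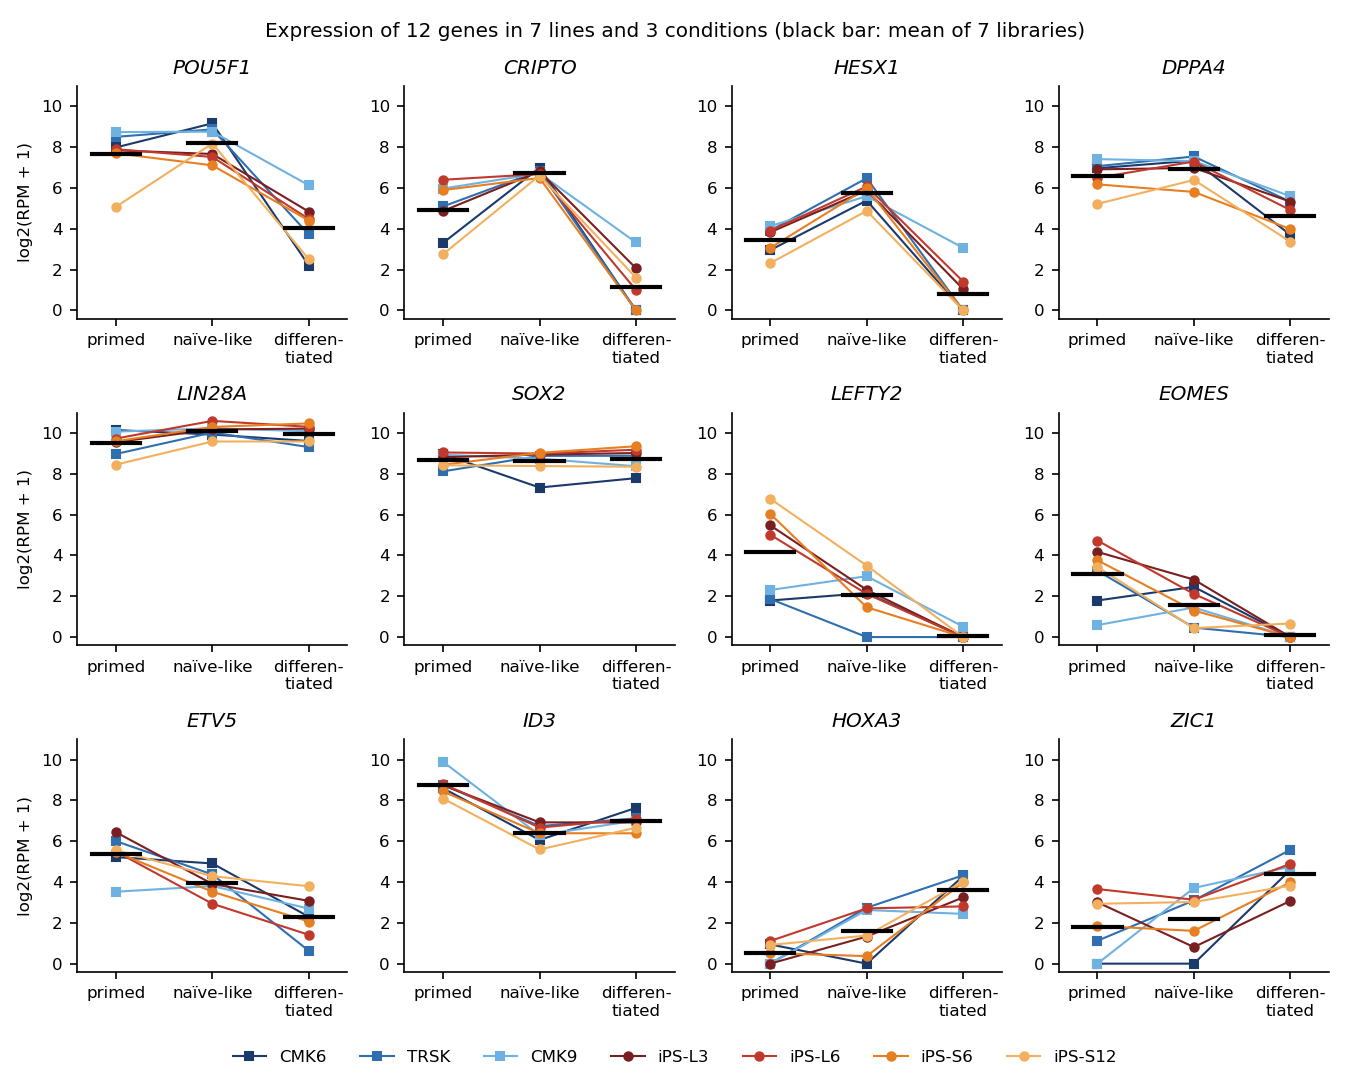
Levels in log2(RPM + 1) of 12 genes in the primed, naïve-like and differentiated library of each line, with ESC lines as squares, iPSC lines as circles and a black bar for the mean of 7 libraries. POU5F1 and CRIPTO are lower in the differentiated than in the primed library of every line, SOX2 is higher in 4 lines and lower in 3, and HOXA3 is higher in every line.

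Of the Nodal/Activin pathway, ligand inhibitor, co-receptor, receptors and a target fell. LEFTY2, a secreted inhibitor of Nodal that is itself switched on by the pathway, was at 2.46–109 RPM (median 31.4) in primed libraries. In differentiated libraries it was at 0 in 6 of 7, and the reads summed to 2 against 618 in the primed libraries, which is 0.351% of the primed rate (95% exact interval 0.0425% to 1.27%, counting error only). The fitted difference was -4.11 ± 0.67 (adjusted p = 0.00178), a value that depends on the pseudocount. EOMES, a T-box factor of early mesendoderm, lay between 0.501 and 25.6 RPM in primed cells and at 0 in 6 differentiated libraries. Its 2 reads there against 172 in primed cells made 1.26% of the primed rate (95% exact interval 0.152% to 4.63%). It was lower in all 7 lines (difference -3.01 ± 0.57, adjusted p = 0.00453).

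TGFBR2, the type II receptor of TGF-beta, fell by 1.97 ± 0.41 (adjusted p = 0.00704), and ACVR2B, a type II receptor of Activin and Nodal, fell by 0.82 ± 0.15 (adjusted p = 0.00348). LEFTY1 had a difference of -1.94 ± 0.72 that did not pass (adjusted p = 0.0831). Neither did SKIL, a repressor of SMADs (-1.45 ± 0.52, adjusted p = 0.075), nor the co-receptor TGFBR3 (-0.89 ± 0.37, adjusted p = 0.12). The SKIL value joins a mean of 0.18 in ESC lines and of -2.67 in iPSC lines, a contrast that did not pass (limma interaction, adjusted p = 0.0853). In all, 5 of 9 tested members fell and 0 rose, with a median difference of -1.94.

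The 3 genes of the FGF-ERK list that fell were targets or regulators of the cascade. ETV5, an ETS factor induced by ERK, went from 10.5–85.9 RPM (median 44.2) to 0.546–12.9 RPM (median 3.92), a difference of -3.11 ± 0.43 (adjusted p = 0.000777). Its relative ETV1 had groups that did not overlap, at 22.6–51.1 RPM (median 39.1) and 4.43–11.7 RPM (median 8.32) (difference of -2.18 ± 0.25, adjusted p = 0.000246). IL17RD (SEF), a feedback inhibitor of FGF signalling, fell by 1.62 ± 0.37 in 6 of 7 lines (adjusted p = 0.011). The kinase BRAF did not pass, with a difference of 0.13 (adjusted p = 0.621). Thus 3 of 7 tested members fell and 0 rose (median -0.64).

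Genes of the BMP pathway went both ways. ID3, an inhibitor of basic helix-loop-helix factors that BMP induces, was at 272–949.9 RPM (median 428) in primed libraries and at 82.8–198 RPM (median 128) in differentiated ones, without overlap. It fell by 1.79 ± 0.17 (adjusted p = 0.000152), and ID4 fell by 0.99 ± 0.14 (adjusted p = 0.000907). The ligand BMP5 instead rose, from 0–10.2 RPM (median 0.923) to 2–38.8 RPM (median 7.89), by 2.17 ± 0.60 (adjusted p = 0.0279). This call was lost without CMK6, iPS-S6 or TRSK (adjusted p between 0.0503 and 0.0936) and without pairing by line (adjusted p = 0.0512). The rise lay mainly in ESC lines, where BMP5 went from 0.125–1.76 RPM to 14.6–38.8 RPM. In iPSC lines it went from 0–10.2 RPM to 2–7.89 RPM and fell in iPS-S12. TFAP2A, a factor of surface ectoderm and neural crest, differed by 1.10 ± 0.43 and MSX1 by 1.28 ± 0.46, and neither passed (adjusted p = 0.0962 and 0.0759). The list of 5 tested members had 2 falls, 1 rise and a median of 1.10, so its median and the larger number of its calls had opposite signs.

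Among the largest falls, other genes had roles at the cell surface and in the nucleus. KDR, the VEGF receptor of early mesoderm and endothelium, fell from 4.41–47.7 RPM (median 24.7) to 0–4.64 RPM (median 0), with 4 differentiated libraries at 0 (difference of -3.48 ± 0.39, adjusted p = 0.000228). TM4SF18, a membrane protein with 4 spans, fell by 3.49 ± 0.50 (adjusted p = 0.000907). The RhoGEF KALRN had 10.9–33.7 RPM (median 28.7) before and 0–4.9 RPM (median 3.16) after, without overlap (difference of -3.15 ± 0.47, adjusted p = 0.00111). LRRN3, a leucine-rich repeat protein of the membrane, fell by 2.78 ± 0.55 (adjusted p = 0.00583), and the calcium-binding protein S100A4 by 2.87 ± 0.49 (adjusted p = 0.00244).

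In the nucleus, NFE2L3 encodes a basic leucine zipper factor of the NRF family. It was at 70–208 RPM (median 122) in primed and at 8.65–50.3 RPM (median 12.8) in differentiated cells, so that the groups stood apart (difference of -2.76 ± 0.41, adjusted p = 0.00117). NR5A2 is a nuclear receptor that activates POU5F1 in mouse pluripotent cells. It fell in 7 of 7 lines, from 2.21–34.1 RPM (median 16.1) to 0–4.25 RPM (median 0.364), by 2.85 ± 0.46 (adjusted p = 0.00177).

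HOXA3 and HOXA2 of the HOXA cluster rose. HOXA3, a patterning gene of hindbrain and pharyngeal arches, was at 0–1.16 RPM (median 0.434) in primed libraries, 3 of which were at 0, and at 4.43–19.1 RPM (median 14.9) in differentiated ones. The groups did not overlap, and the rise was 3.09 ± 0.42 (adjusted p = 0.000777). HOXA2, a gene of the hindbrain and second arch, rose by 1.22 ± 0.30 (adjusted p = 0.0165). This call was lost without iPS-L6 (adjusted p = 0.0565). Of 7 tested members of the retinoid response list 3 rose, both of these among them, and 0 fell (median 0.47). CRABP2, a binding protein of retinoic acid, did not pass (0.47 ± 0.17, adjusted p = 0.0718).

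Of 20 tested genes of neural progenitors and early neurons, 3 rose, 1 fell and 16 did not pass (median 0.38). Over all genes tested 15.5% were called, so this count does not by itself set the list apart. ZIC1, a zinc finger factor of the dorsal neural plate, was at 0–11.6 RPM (median 2.61) in primed and 7.44–46.8 RPM (median 23.2) in differentiated libraries. It rose in all 7 lines, by 2.59 ± 0.57 (adjusted p = 0.00915), and more in ESC lines than in iPSC lines, as given below for the line types. EPHA7, an ephrin receptor of the developing brain, rose by 1.35 ± 0.35 (adjusted p = 0.0206), a call lost without CMK6, iPS-S6 or TRSK (adjusted p between 0.0533 and 0.067). It went from 15.7–24.6 RPM to 61.6–195 RPM in ESC lines. In iPSC lines alone the rise was 0.67 (limma, adjusted p = 0.268), and EPHA7 fell in iPS-S12. TUBB2A, a tubulin of neurons, went from 17.4–50.7 RPM (median 23.6) to 38.6–63.6 RPM (median 61.3), higher in every line (rise of 0.87 ± 0.19, adjusted p = 0.0098). SEMA3A, a secreted guidance cue, fell by 1.38 ± 0.21 (adjusted p = 0.00114).

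NES, the intermediate filament of neural progenitors, did not pass. Its level was 192–563 RPM (median 348) in primed cells and 229.5–682 RPM (median 323) in differentiated cells, and the difference was 0.15 ± 0.12 (adjusted p = 0.417). STMN1, a tubulin-binding protein of dividing cells and neurons, differed by 0.15 ± 0.13 (adjusted p = 0.453). The panel of neural progenitor markers, of which 5 of 10 were analysed here (NES, SOX2, ZIC1, FABP7 and HES5), summed to 645–986 RPM (median 824) in primed and 665–1200.1 RPM (median 909) in differentiated libraries.

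The remaining large rises were in genes of varied roles. SSUH2 rose by 3.12 ± 0.46, from 0–2.65 RPM (median 0.923) to 2.91–36.3 RPM (median 14.9) (adjusted p = 0.00108). CCDC80, a secreted protein that binds matrix, rose by 2.25 ± 0.51 (adjusted p = 0.0104), with primed iPS-S12 at 47.8 RPM and the median of primed libraries at 2.50 RPM. PIK3R3, a regulatory subunit of PI3-kinase, stood at 0–4.7 RPM (median 3.04) and 8.32–21.3 RPM (median 14.8), without overlap (rise of 2.18 ± 0.33, adjusted p = 0.00121). S1PR1, a receptor of sphingosine-1-phosphate, also had groups apart (rise of 1.95 ± 0.41, adjusted p = 0.00708). CD47, which protects cells from phagocytosis, was at 10.6–45.6 RPM (median 20.9) and 55.3–107 RPM (median 68.4), without overlap, and rose by 1.72 ± 0.25 (adjusted p = 0.000907).

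The spindle orientation protein GPSM2 rose by 1.69 ± 0.39 (adjusted p = 0.012) and the protease PRSS35 by 1.69 ± 0.39 (adjusted p = 0.0117). TAGLN3, an actin-binding protein of neurons, rose by 1.93 ± 0.48 (adjusted p = 0.0175), a call lost without CMK6 (adjusted p = 0.0525). The chemokine CXCL6 rose by 1.84 ± 0.48 (adjusted p = 0.0214). Its call was lost without iPS-L6 (adjusted p = 0.0607) and without pairing by line (adjusted p = 0.109).

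Of 9 tested genes of sterol and lipid synthesis 4 rose and 1 fell (median 0.33). The lanosterol demethylase CYP51A1 rose by 0.65 ± 0.18 (adjusted p = 0.0284), a call lost without CMK6, iPS-L3 or iPS-S12 (adjusted p between 0.0558 and 0.0829). ELOVL5, which lengthens fatty acids, rose by 0.51 ± 0.13 (adjusted p = 0.0197). The fatty acid binding protein FABP3 fell by 1.51 ± 0.35 (adjusted p = 0.0116). FDPS and ACAT2 did not pass, at differences of 0.0822 and 0.32 (adjusted p = 0.595 and 0.0885).

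Of 11 tested members of the Wnt list, 3 rose and 0 fell (median 0.43). CTNNB1, beta-catenin, was at 221–513 RPM (median 423) in primed and 409.8–801 RPM (median 535) in differentiated libraries and rose by 0.61 ± 0.13 (adjusted p = 0.00704). The receptor FZD1 rose by 0.84 ± 0.26 (adjusted p = 0.0444), a call lost without CMK6, iPS-L3, iPS-S6 or TRSK (adjusted p between 0.0607 and 0.118) and without pairing by line (adjusted p = 0.0512). CAPZA1, which caps actin filaments and is no part of Wnt signalling itself, rose by 0.43 ± 0.12 (adjusted p = 0.0314), a call lost without CMK6, CMK9, iPS-L3, iPS-L6, iPS-S12 or TRSK (adjusted p between 0.0569 and 0.0716). WNT5A and BCL9 did not pass, at -0.40 and -0.18 (adjusted p = 0.453 and 0.579). Among 9 tested genes of the cAMP response, 1 fell and 0 rose (median 0.23). That gene was the CREB relative CREB5 (difference of -1.57 ± 0.37, adjusted p = 0.0129), while PRKACB and ATF3 had differences of 0.24 and 0.30 (adjusted p = 0.454 and 0.497).

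In the Hippo-YAP list 7 of 17 tested members fell and 1 rose (median -0.94). CAV1, the main protein of caveolae, was at 551–1365 RPM (median 911) in primed and at 147–659 RPM (median 363) in differentiated cells, lower in all 7 lines (difference of -1.35 ± 0.24, adjusted p = 0.0026). CAV2 fell by 1.51 ± 0.28 (adjusted p = 0.00376) and PTPN14, a phosphatase that restrains YAP, by 0.94 ± 0.17 (adjusted p = 0.00348). F3, tissue factor, fell by 2.62 ± 0.61 (adjusted p = 0.0128). That fall lay mainly in the iPSC lines (mean -4.14), while the ESC lines had a mean of -0.58 and CMK9 rose by 0.90. F3 is among the genes whose response differed between line types, given below (limma interaction, adjusted p = 0.0497). The surface enzyme NT5E fell by 2.05 ± 0.52 (adjusted p = 0.0183), a call lost without iPS-L6, iPS-S12 or iPS-S6 (adjusted p between 0.0551 and 0.0658) and without pairing by line (adjusted p = 0.0918). The LIM protein LMCD1 fell by 1.70 ± 0.50 (adjusted p = 0.0369) in 5 of 7 lines, a call lost without CMK6, iPS-L6, iPS-S12, iPS-S6 or TRSK (adjusted p between 0.0758 and 0.0921) and without pairing by line (adjusted p = 0.0839). WWTR1 (TAZ), the partner of YAP, fell by 1.20 ± 0.35 (adjusted p = 0.0366), a call lost when any of 5 lines (CMK6, both liver lines and both stomach lines) was left out (highest adjusted p = 0.111) and without pairing by line (adjusted p = 0.0502). The only member that rose was TAGLN3, described above, and CYR61 did not pass (difference -0.15 ± 0.44, adjusted p = 0.842). That CYR61 value joins a mean of 0.77 in ESC lines and of -0.85 in iPSC lines.

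Of 20 tested genes of collagens and matrix, 6 fell and 0 rose (median -0.55). COL6A1, a chain of collagen VI, fell by 1.67 ± 0.34 (adjusted p = 0.0069), and COL26A1 fell by 1.47 ± 0.24, with groups apart (adjusted p = 0.00178). PCOLCE, an enhancer of procollagen processing, fell by 1.05 ± 0.24 (adjusted p = 0.0117), and the lysyl hydroxylase PLOD1 by 1.01 ± 0.15 (adjusted p = 0.00108). LAMC1, a laminin chain, fell by 0.69 ± 0.14 (adjusted p = 0.00704). COL1A2 fell by 0.75 ± 0.23 (adjusted p = 0.0436), a call lost without CMK6, iPS-L3, iPS-L6, iPS-S12, iPS-S6 or TRSK (adjusted p between 0.0631 and 0.119) and without pairing by line (adjusted p = 0.618), and its levels spanned 8.5 to 579 RPM over the 14 libraries. The summed fibroblast markers, given further on, were lower in differentiated cells as well, but much of that sum was CAV1. Their part in these falls was not tested. LAMB1 and PTN did not pass, at -0.46 and -0.18 (adjusted p = 0.147 and 0.667).

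Among 11 tested genes of epithelial junctions, 3 fell and 1, CTNNB1, rose (median -0.63). FBLIM1, a filamin-binding protein of cell-matrix contacts, was at 219–361 RPM (median 273) in primed and 32.9–174 RPM (median 69.2) in differentiated libraries, without overlap (difference of -1.86 ± 0.22, adjusted p = 0.000283). DSP, the desmosomal desmoplakin, also had groups apart (difference of -1.44 ± 0.19, adjusted p = 0.000696). ARHGEF2, a RhoGEF bound to microtubules and tight junctions, fell by 0.57 ± 0.17 (adjusted p = 0.0414), a call lost without CMK6, iPS-L3, iPS-L6, iPS-S12, iPS-S6 or TRSK (adjusted p between 0.0559 and 0.0952) and without pairing by line (adjusted p = 0.14). The nectin PVRL3 and the claudin CLDN12 did not pass, at -0.63 and 0.12 (adjusted p = 0.0585 and 0.732).

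**Figure D3:**
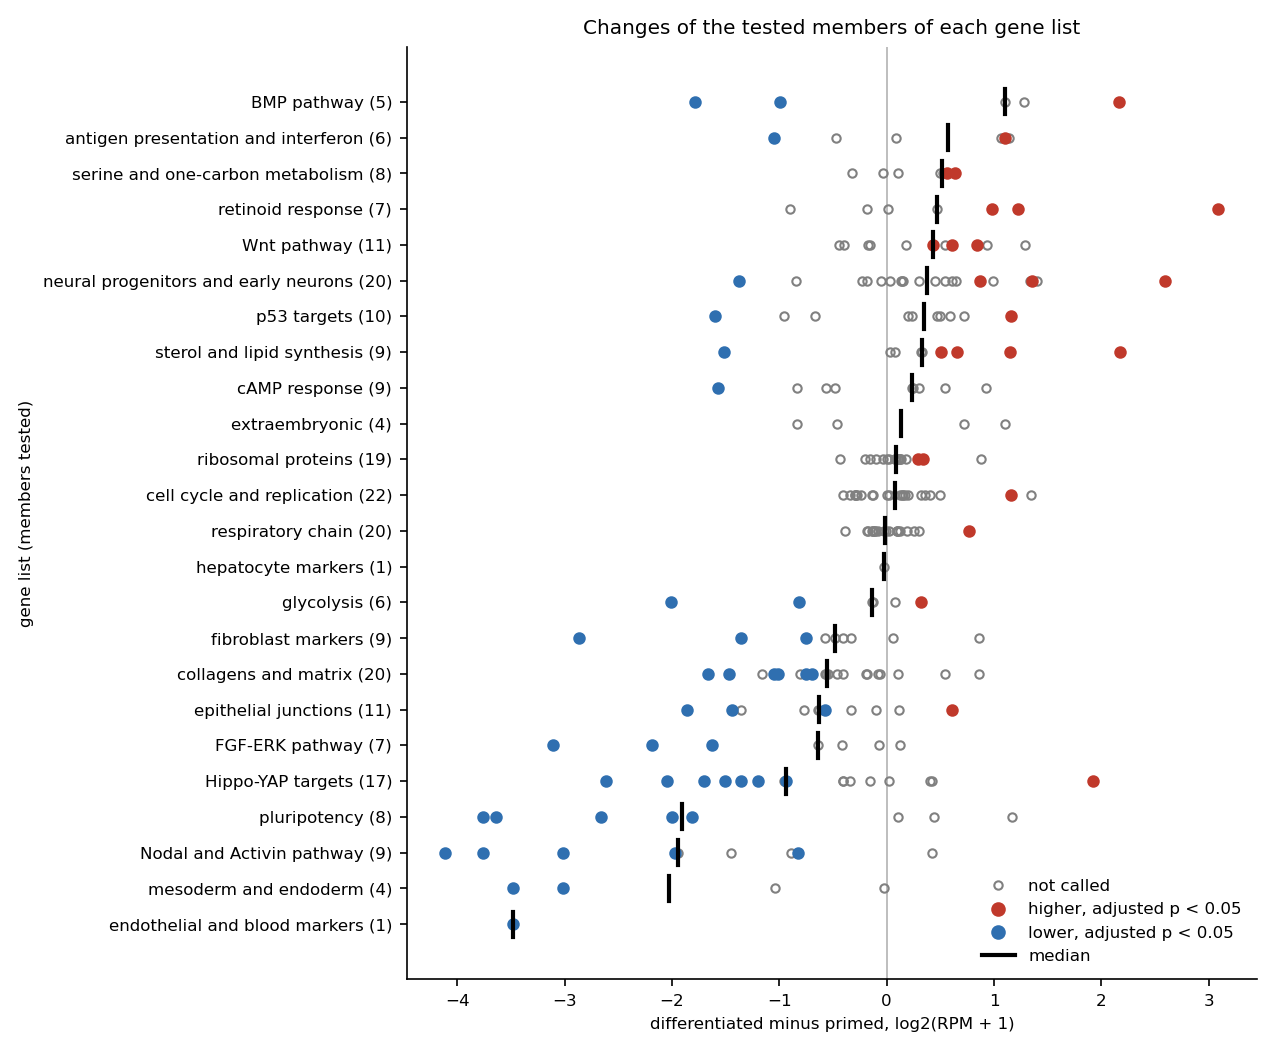
Difference between differentiated and primed cells, in log2(RPM + 1), of each tested member of 24 gene lists, ordered by the median (black bar). Filled blue points fell and filled red points rose at an adjusted p under 0.05, and open points did not pass. The pluripotency and Nodal lists hold 5 filled blue points each and 0 red ones.

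In the cell cycle list 1 of 22 tested genes, CDKN1A, rose and 0 fell (median 0.0766), in the respiratory chain list 1 of 20 rose and 0 fell (median -0.0149), and in the list of ribosomal proteins 2 of 19 rose and 0 fell (median 0.0831). The last list also held RPS6KA1, a kinase and no ribosomal protein, which did not pass (difference -0.44, limma adjusted p = 0.13). CDKN1A (p21), an inhibitor of cyclin-dependent kinases and a target of p53, rose by 1.16 ± 0.31 in 5 of 7 lines (adjusted p = 0.0261). Its call was lost without CMK6, iPS-L3, iPS-L6 or iPS-S12 (adjusted p between 0.0527 and 0.0834) and without pairing by line (adjusted p = 0.0918). Primed CDKN1A was lowest in iPS-L3 (6.18 RPM), iPS-S12 (15.1 RPM) and iPS-L6 (18.6 RPM). It was at 45.7–58.5 RPM in primed CMK6, CMK9, TRSK and iPS-S6. The episomal vector still detected in iPS-L3, iPS-L6 and a stomach line carries a hairpin against p53. The part of this vector in the rise was not tested. Of 10 tested p53 targets only CDKN1A rose and PLK3 fell (by 1.59 ± 0.38, adjusted p = 0.0143), with a median of 0.35. ZMAT3 and GADD45A of the same list did not pass, at 0.24 and -0.96 (adjusted p = 0.54 and 0.0683). RBBP4 of the cell cycle list differed by 0.32 (adjusted p = 0.0622).

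NDUFAF3, an assembly factor of complex I, rose by 0.77 ± 0.21 (adjusted p = 0.0302), a call lost without CMK6, CMK9 or iPS-L6 (adjusted p between 0.0548 and 0.0909) and without pairing by line (adjusted p = 0.118), while NDUFA4 and ATP5O had differences of -0.13 and 0.0257 (adjusted p = 0.465 and 0.883). RPSA, a protein of the small ribosomal subunit, rose by 0.34 ± 0.07 (adjusted p = 0.0069). RPL5 rose by 0.30 ± 0.0921 (adjusted p = 0.047), a call lost without CMK6, CMK9, iPS-L3, iPS-L6, iPS-S6 or TRSK (adjusted p between 0.0503 and 0.108) and without pairing by line (adjusted p = 0.0606). RPS12 and RPL9 did not pass, at -0.10 and 0.0806 (adjusted p = 0.29 and 0.479). Ribosomal proteins have many processed pseudogenes that can share reads, so their values are uncertain.

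In glycolysis 2 of 6 tested genes fell and 1 rose (median -0.13). AK4, an adenylate kinase of mitochondria, fell by 2.01 ± 0.41 in all 7 lines, from 23.5–96 RPM (median 44.7) to 5.31–35 RPM (median 9.79) (adjusted p = 0.00704). The glucose transporter SLC2A1 (GLUT1) fell by 0.81 ± 0.22 (adjusted p = 0.0256), a call lost without CMK6, iPS-L3, iPS-L6, iPS-S6 or TRSK (adjusted p between 0.0599 and 0.0783). Enolase, ENO1, rose by 0.32 ± 0.0829 with groups apart (adjusted p = 0.02), a call lost without CMK6, iPS-L3 or iPS-L6 (adjusted p between 0.0537 and 0.0591). The lactate transporter SLC16A1 and PGM1 did not pass, at -0.13 and 0.0737 (adjusted p = 0.677 and 0.756).

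Of 8 tested genes of serine and one-carbon metabolism 2 rose and 0 fell (median 0.51). MTHFD1L, an enzyme of mitochondrial folate metabolism, rose by 0.63 ± 0.14 (adjusted p = 0.0098). Asparagine synthetase, ASNS, rose by 0.57 ± 0.15 (adjusted p = 0.0206), a call lost without CMK6 (adjusted p = 0.061) and without pairing by line (adjusted p = 0.0881). PHGDH and AHCYL1 did not pass, at 0.11 and -0.32 (adjusted p = 0.604 and 0.143). Of 6 tested genes of antigen presentation and interferon response, IFI6 rose by 1.11 ± 0.32 (adjusted p = 0.0366) and the receptor IFNGR1 fell by 1.05 ± 0.19 (adjusted p = 0.00346), with a median of 0.58. The call of IFI6 was lost without CMK6, CMK9, iPS-L6, iPS-S6 or TRSK (adjusted p between 0.0657 and 0.0885) and without pairing by line (adjusted p = 0.0685). IFNAR1 and IFI16 did not pass, at 0.0902 and 1.06 (adjusted p = 0.834 and 0.126).

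Markers of other cell types were then read. Of 18 analysed genes of mesoderm and endoderm only 4 passed the filter, and 2 of these, EOMES and KDR, fell (median -2.03). PRDM1 did not pass (-1.04 ± 0.54, adjusted p = 0.212), nor did AFP (-0.0205 ± 0.66, adjusted p = 0.987). That AFP mean joins opposite changes, since AFP was lower after withdrawal in all 3 ESC lines and higher in all 4 iPSC lines, as given with the line types. Of 9 extraembryonic genes 4 were tested and 0 were called (median 0.13), with TFPI2 at 0.72 and an adjusted p of 0.19. The 10 analysed hepatocyte markers summed to 3.99–57.3 RPM (median 47.6) in primed and 2.64–152 RPM (median 30.1) in differentiated libraries. Of these only AFP passed the filter, so its difference is also the median of that list, and GC and CYP4A11 were at 0 in all 14 libraries. The 17 analysed endothelial and blood markers summed to 13.7–54.8 RPM (median 33) and 3.55–9.56 RPM (median 5.55). KDR was the only one tested (-3.48), and ERG, SELE, SELP, CD48, CD53 and CD2 were at 0 in all 14 libraries.

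The 14 analysed fibroblast markers summed to 744–1622 RPM (median 1216) in primed and 314–1033 RPM (median 624) in differentiated libraries, and ELN was at 0 in all 14. Much of this sum was CAV1, also a member of the Hippo-YAP list. CAV1 alone was at 551–1365 RPM (median 911) in primed and 147–659 RPM (median 363) in differentiated libraries. Of 9 tested members, 3 (S100A4, CAV1 and COL1A2) fell and 0 rose, with a median of -0.48, while COL12A1 (0.86) and OLFML3 (-0.48) did not pass (adjusted p = 0.0941 and 0.3). The marker sums of the pluripotent panel, 6 of 10 genes analysed, were 785–2456 RPM (median 1668) and 1027–2138 RPM (median 1569), with LIN28A and SOX2 giving the largest shares in differentiated libraries. Against the label differentiated, POU5F1, CRIPTO, DPPA4 and L1TD1 were thus lower, and SOX2 and LIN28A did not pass. Over the 7 lines together 0 genes rose in the lists of mesoderm and endoderm (4 tested), extraembryonic (4), hepatocyte (1), fibroblast (9) or endothelial and blood genes (1). AFP was higher in the 4 iPSC lines. As AFP and KDR are each in more than 1 list and 7.51% of all genes tested rose, so few genes cannot show that these cell types were absent. The part of the marker lists in the other changes was not tested.

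The naïve-like library of the same line gives the level of each gene before withdrawal. Comparisons of naïve-like with primed and of differentiated with naïve-like cells share libraries with the main comparison, so their values are set side by side only. POU5F1 had 137–575 RPM (median 289) in naïve-like libraries beside medians of 238 in primed and 20.2 in differentiated ones. CRIPTO had 89.1–126 RPM (median 104) beside 33.2 and 0.999, and HESX1 28.5–88.3 RPM (median 58.2) beside 13.2 and 0. The naïve-like medians of these 3 genes were above the primed ones. Within lines, though, naïve-like POU5F1 was below primed in iPS-L3 (202 against 230 RPM), iPS-L6 (183 against 238 RPM) and iPS-S6 (137 against 207 RPM). NFE2L3 had a naïve-like median of 105 RPM and NR5A2 of 11.7 RPM, both nearer to the primed medians of 122 and 16.1 RPM than to the differentiated ones.

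For other genes the naïve-like level was already low. The naïve-like median was 0.178 RPM for TM4SF18, 0.292 RPM for LRRN3 and 4.15 RPM for KALRN, against primed medians of 29.8, 25.6 and 28.7 RPM. FBLIM1 had a naïve-like median of 69.9 RPM beside 69.2 RPM after withdrawal, and ID3 82.9 RPM beside 128 RPM. CAV1 and ID4 had naïve-like medians of 139.6 and 19.9 RPM, lower than both the primed and the differentiated medians. Among the rises, the naïve-like median was 1.6 RPM for HOXA3, 1.78 RPM for SSUH2, 25 RPM for CD47 and 3.03 RPM for S1PR1. Each was nearer to the primed median (0.434, 0.923, 20.9 and 3.53 RPM) than to the differentiated one. Other rises were already present in naïve-like cells. For MTHFD1L, ELOVL5, RPSA and TXNIP the naïve-like medians were 159, 408, 2271 and 28.3 RPM. Their primed medians were 65.1, 235, 1796 and 4.11 RPM, and their differentiated medians 116, 299, 2260 and 29 RPM. How many rises were of either kind was not counted.

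Each line was also read in genes chosen without it, from the fit of the other 6 lines. The mean rise of the genes higher in the other lines was 0.49 (iPS-S12) to 0.96 (TRSK), and 80.4% to 95.2% of them rose in the line left out. The mean difference of the genes lower in the others was -0.33 in CMK9, -0.75 in iPS-S12 and -0.998 in TRSK, and -1.46 to -1.89 in the other 4 lines. In CMK9 63.3% of the 248 lower genes fell, against 80.8% to 96.7% in the other lines. All 7 lines thus moved the same way on average, with CMK9 least in the falls and iPS-S12 least in the rises. The primed CMK9 library was the deepest, with 7986000 reads, and held the lowest primed values of several genes that fell, among them ETV5 (10.5 RPM, primed median 44.2), which was at 5.48 RPM in differentiated CMK9, and CREB5 (6.14 RPM, primed median 23.2), which was at 8.22 RPM there. These means have no test, since genes are not replicates.

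**Figure D4:**
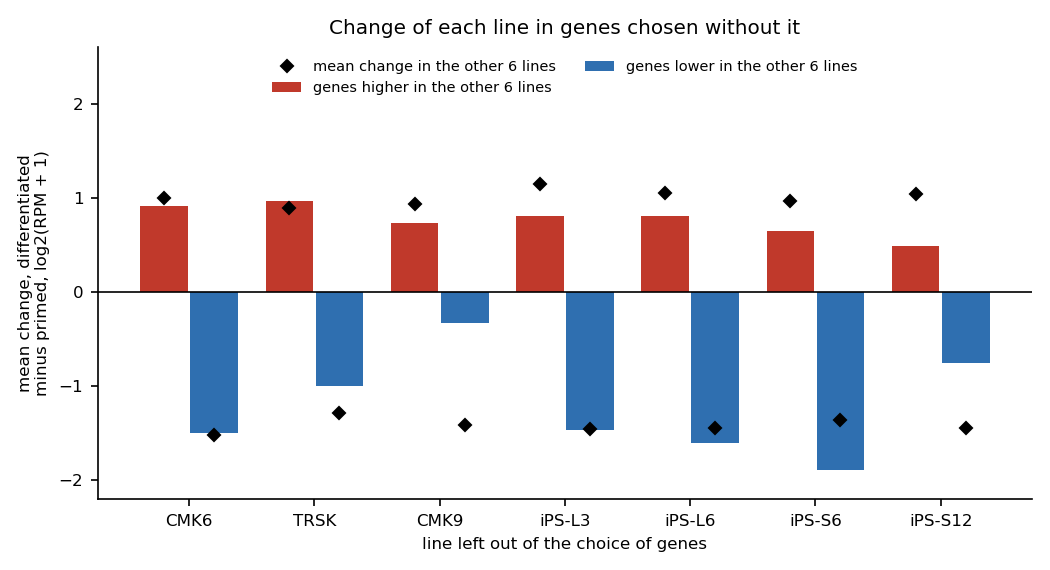
Mean difference between the differentiated and primed library of each line, in log2(RPM + 1), over the genes called higher (red bars) or lower (blue bars) in the other 6 lines, with the mean of those other lines as a black diamond. The blue bar of CMK9 reaches -0.33, while the other 6 lines had -1.42 in the same genes.

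The response was compared between ESC and iPSC lines as an interaction in the same 14 libraries. All 4 iPSC lines came from 1 foetus, so that line type and this donor cannot be told apart, and the p-values measure the spread between lines only. In the paper some dome-shaped colonies remained in iPSC cultures after withdrawal, and their part in these differences was not tested. The interaction was called in 16 of 2677 genes (0.598% called), with 331 genes at an unadjusted p under 0.05. AFP, the fetal serum protein of yolk sac and liver, gave the largest difference in favour of the iPSC lines. It fell in the 3 ESC lines, from 29.2–55.8 RPM in primed libraries to 2.19–28.7 RPM, a mean difference of -2.48. In the 4 iPSC lines it went from 3.10–51.7 RPM to 29.8–150.5 RPM (mean difference 1.82), and the responses differed by 4.30 ± 0.57 (SE), adjusted p = 0.00983. VTCN1, an inhibitory ligand of T cells, fell in the ESC lines (17.9–87.0 RPM before, 2.00–2.94 RPM after) and differed by -0.16 on average in the iPSC lines (response difference 3.54 ± 0.52 (SE), adjusted p = 0.0165).

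In the other 14 genes the signed difference was higher in the ESC lines, which covers larger rises, smaller falls and opposite changes. LEFTY2 and F3 fell less in ESC lines (means -1.82 and -0.58) than in iPSC lines (means -5.83 and -4.14). Primed LEFTY2 was at only 2.46–3.94 RPM in ESC lines, so it had little room to fall there. ZIC1 went from 0–1.18 RPM to 23.2–46.8 RPM in ESC lines, a mean difference of 4.6, and from 2.61–11.6 RPM to 7.44–28.6 RPM in iPSC lines, a mean difference of 1.08 (response difference -3.52 ± 0.60 (SE), adjusted p = 0.0247). After withdrawal the ranges of the line types overlapped, whereas before it the ESC lines lay below the iPSC lines. MSX1, a homeobox gene of the dorsal neural tube and crest, rose by 2.95 on average in ESC lines, from 1.85–2.88 RPM to 23.8–28.4 RPM, and differed by 0.0318 in iPSC lines (response difference -2.91 ± 0.46 (SE), adjusted p = 0.021). HEG1, a membrane mucin, rose by 1.38 in ESC lines and fell by 1.03 in iPSC lines (-2.41 ± 0.40 (SE), adjusted p = 0.0247). VGLL4, which competes with YAP for TEAD factors, had mean differences of 1.03 and -0.77 (-1.80 ± 0.31 (SE), adjusted p = 0.0247).

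None of these calls holds for every choice of lines. Without iPS-L3 or without iPS-L6, both lines with the episomal vector, whose part was not tested, 0 genes were called (limma, 285 and 277 at an unadjusted p under 0.05). The count was 7 without CMK6 or CMK9, 4 without iPS-S6, 11 without TRSK and 20 without iPS-S12. The AFP call was lost without iPS-L3 or iPS-L6 (adjusted p between 0.0602 and 0.0752), and the ZIC1 call without CMK6, CMK9, iPS-L3, iPS-L6 or TRSK (adjusted p between 0.0567 and 0.108). The VTCN1 call was lost without iPS-L3 or iPS-L6 (adjusted p between 0.083 and 0.0929) and the MSX1 call without CMK6, iPS-L3 or iPS-L6 (adjusted p between 0.0588 and 0.108). The HEG1 call was lost without iPS-L3, iPS-L6, iPS-S6 or TRSK (adjusted p between 0.0543 and 0.108) and the VGLL4 call without CMK6, CMK9, iPS-L3, iPS-L6 or iPS-S6 (adjusted p between 0.0567 and 0.123), and the response differences of these 6 genes kept their sign.

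**Figure D5:**
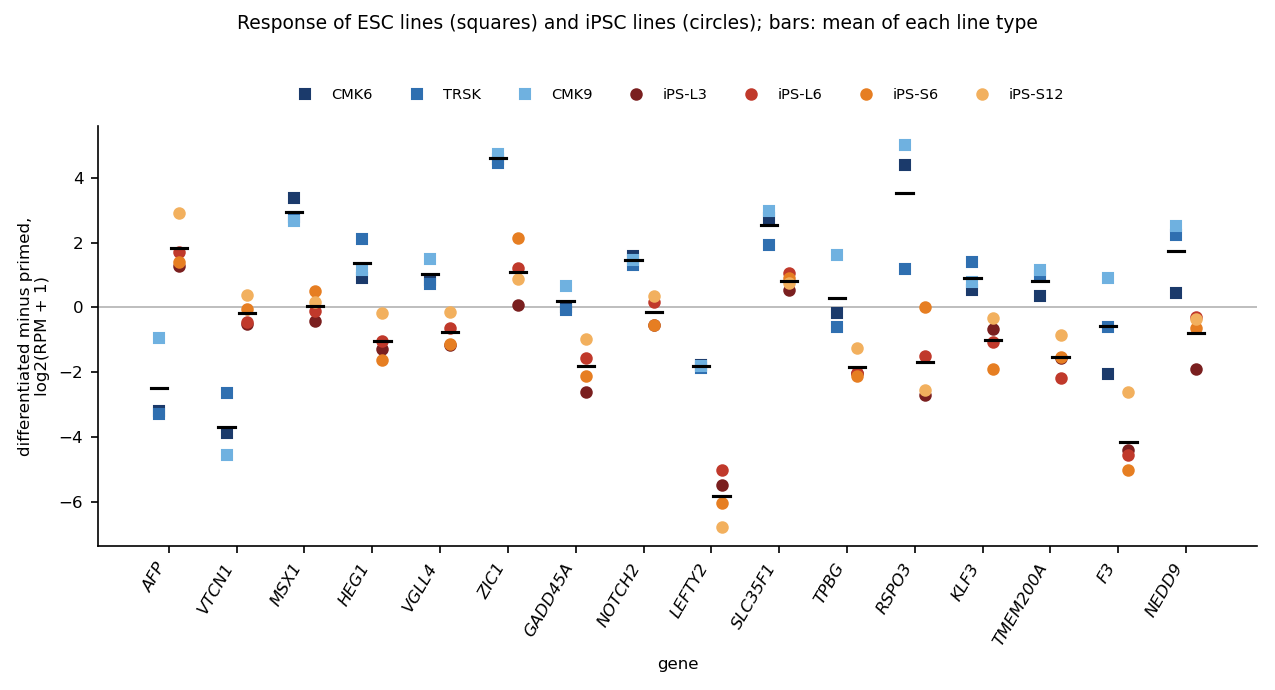
Difference between the differentiated and the primed library, in log2(RPM + 1), of the 16 genes whose response differed between line types, with ESC lines as squares, iPSC lines as circles and bars for the mean of each type. AFP and VTCN1 lie higher in iPSC lines and the other 14 genes lie higher in ESC lines.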

How the data were processed

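In SC3-seq the 3′ ends of amplified cDNA are sequenced, here from 1 ng of total RNA with added spike-ins, as single reads of 75 bp. Per the submitters' processing notes cutadapt 1.3, TopHat 1.4.1 and Cufflinks 2.2.0 were used, and the deposited table is named for the macfas5 build. The authors deposited RPM per gene, with 1 column per library and no pooling. All columns matched a sample by name. The last row was cut short and left out, which left 8415 genes. By gene ID 5564 matched the RefSeq annotation of T2T-MFA8v1.1, a different build that was used for names alone, and the 8415 genes summed to 24.9% to 26.8% of the RPM of a library, so genes outside them were not analysed here. Values above 0 were whole multiples of 1 step (tolerance 0.01 reads) for 85.5% to 92.8% of values in a library, so that they were not taken as counts and no count test was used. The step gave the depth.

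Values were taken as log2(RPM + 1). limma 3.58.1 in R 4.3.3 fitted line and condition with a mean-variance trend to the 14 libraries, and calls were Benjamini-Hochberg adjusted p under 0.05, two-sided, over 2677 genes. Pairing comes from the cell line, and deviations of the same line from the condition means correlated at 0.0249 to 0.503, best with themselves in 4 of 7 lines. p-values measure the spread between lines. Python 3.11.15 (pandas 2.3.3, numpy 2.4.6) made the tables and matplotlib 3.10.9 the figures.

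The members and gene lists were chosen with earlier results of these data known, so they give no independent support. Named genes are the 12 largest rises and 12 largest falls among called genes with a symbol that moved the same way in all 7 lines, up to 4 called and 2 uncalled members of each list, POU5F1, SOX2, CRIPTO, HESX1, EOMES and NES, and up to 6 genes of the interaction. Further members (L1TD1, DPPA2, ACVR2B, LEFTY1, ELOVL5, CAV2, PTPN14, WWTR1, LAMC1) were named after their values were seen. A few genes that these rules name are not reported here. Fits were tested on simulated data. Alternatives were other pseudocounts, filters and normalizations, no trend, no block, all 21 PSC libraries, each line type alone, deeper lines and each line left out.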

Additional observations from a re-analysis of the deposited data

Results flagged for a closer look

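Of 226 groups of 7 libraries examined (the primed and the differentiated levels of each named gene, leaving out groups with under 3 reads in every library), 12 held a library far from the other 6 by Dixon's criterion on the log2(RPM + 1) scale, where chance gives about 1 in 20 groups, or 11.3. Primed CMK9 was the far library 5 times and primed iPS-S12 3 times. The gap to the nearest library, as a share of the range, was 0.619 for CYR61, 0.574 for SKIL, 0.582 for ETV5 and 0.692 for CREB5, where primed CMK9 was lowest, and 0.600 for ID3, where it was highest at 949.9 RPM against a median of 428 RPM. CYR61 was at 74.0 RPM there against a median of 684 RPM, and SKIL at 12.5 RPM against 171 RPM. Primed iPS-S12 was lowest for POU5F1 (0.716, 32.8 RPM against 238 RPM), for AFP (0.760, 3.10 RPM against 45.3 RPM) and for ENO1 (0.814, 848 RPM against 1122 RPM). The other flags were FDPS, highest in primed TRSK (0.730, 409.7 RPM), PIK3R3, lowest in primed iPS-L6 (0.584, at 0), PCOLCE, highest in differentiated TRSK (0.651, 42.1 RPM), and ACAT2, lowest in differentiated iPS-S6 (0.647, 283 RPM).

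The interaction test marked 16 genes whose change differed between line types. The response of the iPSC lines minus that of the ESC lines, on the log2 scale, was 4.30 for AFP, 3.54 for VTCN1, -2.91 for MSX1, -2.41 for HEG1, -1.80 for VGLL4, -3.52 for ZIC1, -2.02 for GADD45A, -1.60 for NOTCH2 and -4.01 for LEFTY2. It was -1.74 for SLC35F1, -2.36 for TMEM200A, -2.13 for TPBG, -1.90 for KLF3, -5.22 for RSPO3, -2.52 for NEDD9 and -3.56 for F3. LEFTY2 stood at 2.46 to 3.94 RPM in primed ESC lines and 31.4 to 108.7 RPM in primed iPSC lines, and was at or near 0 in both after withdrawal. F3 stood at 3.88 to 34.0 RPM in primed ESC lines and 37.2 to 82.5 RPM in primed iPSC lines. RSPO3, a Wnt agonist, was at 0 in the 3 primed ESC libraries and at 1.27 to 31.4 RPM in the differentiated ones. The calls depend on iPS-L3 and iPS-L6, since 0 remained without either.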

How the results depend on the processing

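The count of called genes was 415 and stayed within 1.5 times of that under most alternatives, with 400 at a pseudocount of 0.1, 424 at a pseudocount of 4, 436 after quantile normalization, 431 with library centring, 334 without the trend and 321 with the stricter filter in at least 7 libraries. It was 238 with no filter (5689 genes tested), 74 in ESC lines alone (2479 tested, 3 lines) and 62 in the lines of at least 2000000 reads (4 lines, chosen after the data were seen). Leaving out each line gave 273 to 453 genes. Without the replicate block, that is without pairing by line, it was 315 (146 higher, 169 lower), and 13 of 68 called genes chosen by the naming rule lost their call. With all 21 libraries it was 586 with the block (306 higher, 280 lower) and 369 without it. In iPSC lines alone 380 genes were called, 138 higher and 242 lower. Every one of the 415 genes that was tested under an alternative had the direction given here. The alternatives reuse the libraries that gave the calls, so this is no independent check. The interaction count was 16, 8 at a pseudocount of 0.1, 8 with the stricter filter, 6 without the trend and 4 after quantile normalization, and leaving out each line gave 0 to 20. The difference of SOX2, 0.0295, had the other sign in ESC lines alone (-0.32), in the lines with at least 2000000 reads (-0.26), after quantile normalization (-0.01045) and without iPS-S6 (-0.12) or TRSK (-0.0926), and leaving out each line gave -0.12 to 0.23. None of the 68 called ones, nor NES, turned direction, and 48 of the 68 kept the call when each line was left out. For the 44 other named genes, none of them called, the alternatives were not run, and in 19 of them the mean changes of ESC and iPSC lines had opposite signs. Apart from the settings that test fewer samples or more genes, the cause was not tested. Depth limits values under 0.376 to 3.49 RPM, the level of 3 reads.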

Other observations

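Some further genes with large changes lay outside the lists, and the choice of these was made with their values in view. Beside S100A4, other S100 genes fell. S100A16, a calcium-binding protein, went from 40.7–287 RPM (median 82.5) to 9.56–30.8 RPM (median 14.7) with groups apart (difference of -2.36 ± 0.26, limma adjusted p = 0.000222), and S100A13 fell by 1.43 ± 0.20 with groups apart (adjusted p = 0.000907). S100A10 fell by 1.36 ± 0.24 in 7 of 7 lines (adjusted p = 0.0026). The potassium channel KCNK1 fell by 2.65 ± 0.28 with groups apart (adjusted p = 0.000191), and ROR1, a receptor of WNT5A, fell by 1.99 ± 0.27 (adjusted p = 0.000696). Among chromatin regulators, SATB1 fell by 1.72 ± 0.29 with groups apart (adjusted p = 0.00206) and JARID2, a partner of Polycomb complex PRC2, by 1.22 ± 0.24 (adjusted p = 0.00495).

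Rises outside the lists included TXNIP, which binds thioredoxin and limits glucose uptake. It went from 1.23–26.3 RPM (median 4.11) to 21.2–41.4 RPM (median 29), higher in 6 of 7 lines, by 2.45 ± 0.38 (adjusted p = 0.00139). GLI3, a transcription factor of Hedgehog signalling, rose in 7 of 7 lines from 11.5–55.8 RPM (median 26.1) to 48.9–83 RPM (median 68.4) (rise of 1.17 ± 0.28, adjusted p = 0.0133). WLS, the carrier that brings Wnt ligands to the cell surface, rose by 1.16 ± 0.28 in 7 of 7 lines (adjusted p = 0.0165). LSAMP, an adhesion protein of neurons, had groups apart (rise of 1.66 ± 0.29, adjusted p = 0.0026), and the imprinted gene PEG10 rose by 1.11 ± 0.19 (adjusted p = 0.00214).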
